A study of Ovis aries with 12 samples.

Results

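The genes described here are the interferon response and signalling genes of sheep (Ovis aries) embryos: the effectors that interferon induces, enzymes that act on the pathway, RNA sensors with their adaptor, the receptor subunits with their kinases, and STAT and IRF transcription factors. They were chosen by symbol from a list of 39 genes, of which 34 had an entry of that name among the 26247 genes in the deposited table. The 34 were 17 effectors, 4 pathway enzymes, 4 sensors and adaptor, 4 receptor subunits and kinases, and 5 STAT and IRF factors, on 13 chromosomes. CMPK2, EPSTI1 and USP18 could be named only through a RefSeq gene number and are given apart, and OAS1 and BST2 were not analysed here.

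RNA was sequenced in bulk from embryos that had been dissociated enzymatically into cells, in 4 groups of 3 libraries each: Hulunbuir Short-tail Sheep at day 25, Ujumqin sheep at day 25, Hulunbuir at day 16 and Ujumqin at day 16. Hulunbuir was the experimental breed and Ujumqin the control breed in the series' design, and no further treatment or genotype is given. The design speaks of 3 sheep per group, but the labels do not tie libraries to animals, and the p-values given here therefore cover the differences among these samples alone, part of which may be technical. In bulk RNA, fewer cells of a type and less RNA per cell cannot be told apart.

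Interferons are secreted proteins that cells release after sensing foreign or misplaced nucleic acid. Type I interferons bind the receptor made of IFNAR1 and IFNAR2, whose kinases TYK2 and JAK1 phosphorylate STAT proteins such as STAT2. These join IRF9 to form a complex that switches on a large set of effector genes, among them ISG15, the MX genes and the IFIT genes. In ruminants the trophoblast of the early conceptus secretes interferon tau, which acts on the uterus as the signal of pregnancy recognition and induces many of the same genes there.

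Library totals lay between 30464606 and 55455815 counts, and 14595 genes reached 1 FPKM (fragments per kilobase of gene, scaled to library size, as deposited) in at least 3 of 12 libraries and were tested. Variation between replicates, as the biological coefficient of variation in edgeR, was 18.1% at day 25 and 43.8% at day 16. Ujumqin day 16 replicates 1 and 2 stood apart from the other 10 libraries in PAG4, a placental glycoprotein gene, with 27.7 and 102 FPKM against at most 0.377 FPKM elsewhere. Of the 15 trophoblast markers, PAG6, TFAP2A, TFAP2C, GATA3, PPARG, HAND1 and DLX3 were also highest in those libraries. PAG1, ELF5 and KRT7 were instead highest in Ujumqin day 16 replicate 3, and CDX2, KRT8 and KRT18 in Hulunbuir day 16 replicate 1. Of the 23 leukocyte markers, AIF1, CD53 and CD14 were highest in Ujumqin day 16 replicates 1 and 2. Others, such as LAPTM5, CD68, FCER1G, CORO1A and PTPRC, were lower there than in Ujumqin day 16 replicate 3. Calls that changed when Ujumqin day 16 replicate 3 stood alone for its group are given beside the gene or with the interaction. The RNA of erythroid markers and of yolk sac, endoderm and liver markers differed between groups as well. All 10 erythroid markers were higher in Hulunbuir than in Ujumqin embryos at day 25, with a median log2 change of 2.74. Of 12 yolk sac, endoderm and liver markers 9 were higher and 1 was lower in that comparison. The part of these tissues in the results that follow was not tested.

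Of the 34 genes, 31 were tested. The effectors RSAD2 and IFI44 and the receptor subunit IFNAR2 stayed below the filter. A further 8 genes (MX2, IFIT1, IFIT3, IFI44L, XAF1, HERC6, PARP9 and PARP14) passed only through their day 25 libraries, so they are counted apart in the comparisons of age. All of them but HERC6 therefore had to be higher at day 25 in both breeds. HERC6 passed through the 3 Hulunbuir day 25 libraries alone. It had to be higher there than in the other groups, and the filter did not fix its change with age in Ujumqin. The other 23 reached 1 FPKM at both ages.

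**Figure D1:**
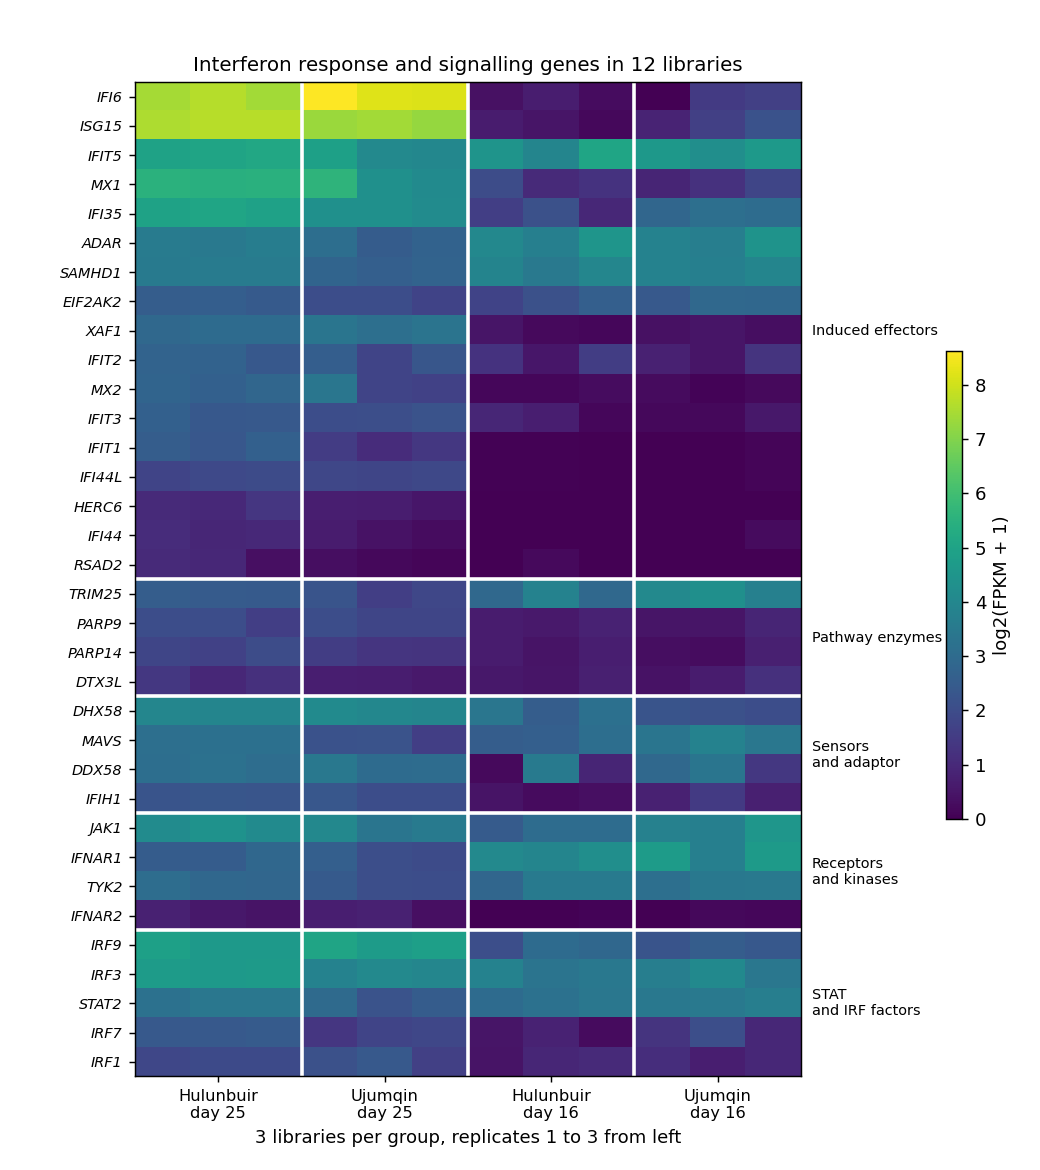
Level of each of the 34 genes in each of the 12 libraries, as log2(FPKM + 1) in colour, with rows grouped by role and ordered within a role by mean FPKM, and columns grouped by breed and day, replicates 1 to 3 from left. ISG15 and IFI6 are bright in all 6 day 25 libraries (151 to 393 FPKM) and dark in all 6 day 16 libraries (0 to 3.50 FPKM), whereas IFNAR1 and TRIM25 are brighter at day 16.

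Between day 25 and day 16, effector genes were the members that changed most. ISG15 and IFI6 had 151 to 393 FPKM in every day 25 library and 0 to 3.50 FPKM in every day 16 library, in both breeds. MX1, MX2, IFIT1, IFIT2, IFIT3, IFI35, IFI44L, XAF1 and HERC6 were likewise higher at day 25 in both breeds. SAMHD1 and ADAR were called lower at day 25 in both breeds, with Hulunbuir calls that some alternative fits did not keep. IFIT5 did not pass the test in either breed. In Hulunbuir 11 of 15 tested effectors were higher and 2 were lower, and in Ujumqin 11 were higher and 3 were lower, by the edgeR quasi-likelihood test with Benjamini-Hochberg adjustment over all 14595 genes. Among all genes tested, 18.9% were higher and 21.6% lower at day 25 in Hulunbuir (40.5% in all), and 30.7% were higher and 32.9% lower in Ujumqin (63.6% in all). Of the 9 effectors that reached 1 FPKM at both ages, 5 were higher and 2 lower in Hulunbuir, and 5 were higher and 3 lower in Ujumqin.

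ISG15 encodes a ubiquitin-like protein that is attached to other proteins, and lies on chromosome 12 from 49537787 to 49538733 on the minus strand of the Oar_v3.1 assembly. It had 187, 208 and 205 FPKM in Hulunbuir and 161, 170 and 151 FPKM in Ujumqin embryos at day 25, against 0.571, 0.414 and 0.138 FPKM in Hulunbuir and 0.794, 2.11 and 3.50 FPKM in Ujumqin embryos at day 16. The day 16 values rest on 4 to 16 counts per library in Hulunbuir and 22 to 104 in Ujumqin, and the ages did not overlap in either breed. The log2 change of day 25 over day 16 was 8.78 ± 0.55 in Hulunbuir (SE, adjusted p = 4.21e-06), and it was 6.36 ± 0.47 in Ujumqin (adjusted p = 2.76e-06). IFI6, which encodes a small membrane protein of mitochondria and the endoplasmic reticulum, lies on chromosome 2 from 238537980 to 238539929 on the plus strand. Its levels were 177, 200 and 171 FPKM in Hulunbuir and 393, 296 and 287 FPKM in Ujumqin embryos at day 25, against 0.293, 0.612 and 0.222 FPKM in Hulunbuir and 0, 1.75 and 2.11 FPKM in Ujumqin embryos at day 16. It therefore had the highest mean over the 12 libraries of the 34 genes, 127 FPKM, with no overlap between ages. Its log2 change with age was 8.68 ± 0.86 in Hulunbuir (adjusted p = 4.99e-05) and 8.10 ± 0.80 in Ujumqin (adjusted p = 1.17e-05).

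MX1 and MX2 encode dynamin-like GTPases that block viruses, and are neighbours on the plus strand of chromosome 1, 20519 bases apart. MX1 had 44.0, 42.8 and 43.7 FPKM in Hulunbuir and 47.5, 19.1 and 16.5 FPKM in Ujumqin embryos at day 25, against 3.00, 1.02 and 1.38 FPKM in Hulunbuir and 0.841, 1.32 and 2.45 FPKM in Ujumqin embryos at day 16. For MX2 the values were 5.87, 5.30 and 6.23 FPKM in Hulunbuir and 9.50, 2.44 and 2.20 FPKM in Ujumqin embryos at day 25, against 0.112, 0.101 and 0.228 FPKM in Hulunbuir and 0.191, 0.0548 and 0.156 FPKM in Ujumqin embryos at day 16. Both genes were far higher in Ujumqin day 25 replicate 1 than in the other two Ujumqin libraries of that age, while the Hulunbuir libraries were close to each other. The log2 change with age was 4.44 ± 0.53 in Hulunbuir and 4.30 ± 0.53 in Ujumqin for MX1, and 5.13 ± 0.63 in Hulunbuir and 5.18 ± 0.63 in Ujumqin for MX2 (adjusted p 4.16e-05 to 1.55e-04). Reads shared by the 2 similar genes could be split between them in counting.

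The IFIT genes encode RNA-binding proteins with tetratricopeptide repeats, and IFIT2, IFIT3, IFIT1 and IFIT5 stand next to each other in this order on the plus strand of chromosome 22, with gaps of 14198 to 17174 bases. IFIT1 had 4.83, 4.07 and 5.24 FPKM in Hulunbuir and 1.92, 1.14 and 1.62 FPKM in Ujumqin embryos at day 25, against 0.0394, 0.0469 and 0 FPKM in Hulunbuir and 0, 0 and 0.0883 FPKM in Ujumqin embryos at day 16. It rested on at most 10 counts in any day 16 library, with log2 changes of 6.99 ± 1.06 in Hulunbuir (adjusted p = 5.50e-04) and 5.64 ± 1.01 in Ujumqin (adjusted p = 5.78e-04). IFIT2 rose by less, with log2 changes of 1.93 ± 0.51 in Hulunbuir (adjusted p = 0.0114) and 2.27 ± 0.52 in Ujumqin (adjusted p = 0.00270), and IFIT3 changed by 2.83 ± 0.65 in Hulunbuir and 3.81 ± 0.69 in Ujumqin. The fourth gene of the cluster behaved otherwise. IFIT5 had 30.6, 32.0 and 34.7 FPKM in Hulunbuir and 29.2, 15.6 and 14.9 FPKM in Ujumqin embryos at day 25, against 21.3, 14.2 and 32.2 FPKM in Hulunbuir and 23.1, 18.0 and 23.9 FPKM in Ujumqin embryos at day 16. Its ages overlapped in both breeds, and the log2 change was 0.41 ± 0.25 in Hulunbuir (adjusted p = 0.208) and 0.00 ± 0.25 in Ujumqin (adjusted p = 0.988). So within 1 stretch of chromosome 22, the gene with the highest level at day 16 was the 1 without a called change.

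IFI35, which encodes a leucine zipper protein, had 30.4, 32.6 and 29.9 FPKM in Hulunbuir and 19.3, 19.2 and 16.7 FPKM in Ujumqin embryos at day 25, against 2.05, 3.38 and 0.960 FPKM in Hulunbuir and 6.17, 7.92 and 7.28 FPKM in Ujumqin embryos at day 16. The order of the breeds was thus opposite at the 2 ages, without overlap at either. XAF1, a gene with a role in cell death, had 6.62, 7.0 and 7.03 FPKM in Hulunbuir and 9.14, 7.96 and 9.05 FPKM in Ujumqin embryos at day 25, against 0.396, 0.158 and 0.118 FPKM in Hulunbuir and 0.313, 0.400 and 0.235 FPKM in Ujumqin embryos at day 16. Log2 changes with age for IFI35 were 3.62 ± 0.42 in Hulunbuir (adjusted p = 1.27e-04) and 1.50 ± 0.39 in Ujumqin (adjusted p = 0.00565). Those for XAF1 were 4.74 ± 0.43 in Hulunbuir (adjusted p = 3.14e-05) and 4.89 ± 0.43 in Ujumqin (adjusted p = 6.27e-06). The IFI35 change in Ujumqin had an adjusted p of 0.0601, and that of IFIT2 one of 0.0767, when day 16 replicate 3 stood alone for its group. IFI44L averaged 2.68 FPKM in Hulunbuir and 2.55 FPKM in Ujumqin embryos at day 25, against 0.0210 FPKM in Hulunbuir and 0.0360 FPKM in Ujumqin embryos at day 16. HERC6, a HECT and RCC1 domain protein, had 1.06, 1.01 and 1.58 FPKM in Hulunbuir and 0.652, 0.604 and 0.431 FPKM in Ujumqin embryos at day 25. At day 16 it had no count in 5 libraries and 4 counts, or 0.0212 FPKM, in Ujumqin replicate 3. Taking the floor as 3 counts per library, HERC6 was at least 61.4-fold higher at day 25 in Hulunbuir.

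**Figure D2:**
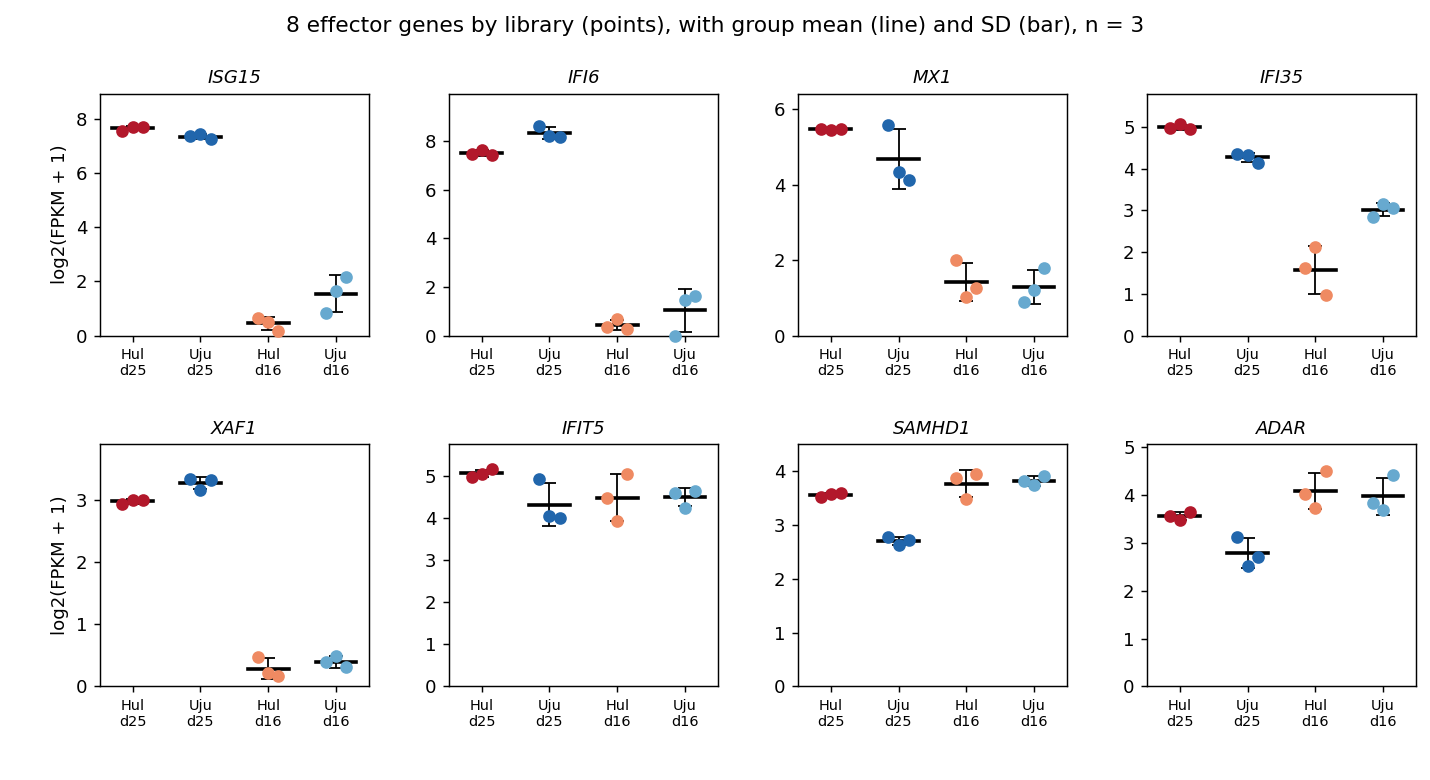
Level of 8 effector genes by library as log2(FPKM + 1), each panel with its own vertical axis from 0, for Hulunbuir (Hul) and Ujumqin (Uju) embryos at day 25 (d25) and day 16 (d16); points are libraries, the line is the mean of the log values and the bar their SD (n = 3). ISG15, IFI6, MX1, IFI35 and XAF1 are higher in every day 25 library than in any day 16 library, while IFIT5, SAMHD1 and ADAR are well detected at both ages.

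The effectors SAMHD1, ADAR and EIF2AK2 were detected at both ages, and for none of the 3 was a rise at day 25 called. SAMHD1, which breaks down deoxynucleotides, had 10.5, 10.9 and 11.1 FPKM in Hulunbuir and 5.83, 5.16 and 5.63 FPKM in Ujumqin embryos at day 25, against 13.7, 10.2 and 14.4 FPKM in Hulunbuir and 13.1, 12.3 and 14.1 FPKM in Ujumqin embryos at day 16. The Ujumqin ages did not overlap, and the log2 change there was -1.11 ± 0.12 (adjusted p = 1.94e-05). In Hulunbuir the ages overlapped, with a log2 change of -0.38 ± 0.12 (adjusted p = 0.0241) that lost its call without any 1 of 4 libraries (day 25 replicates 1, 2 and 3 and day 16 replicate 1, adjusted p 0.0623 to 0.0909). The Hulunbuir call was also lost by edgeR without the filter (adjusted p = 0.0668) or in the 6 libraries of the breed (adjusted p = 0.081). Limma on log2(FPKM + 1) did not make it either (adjusted p = 0.319). ADAR, the enzyme that edits adenosine to inosine in double-stranded RNA, averaged 10.9 FPKM in Hulunbuir and 5.99 FPKM in Ujumqin embryos at day 25, against 16.4 FPKM in Hulunbuir and 15.2 FPKM in Ujumqin embryos at day 16. Its log2 change was -0.72 ± 0.21 in Hulunbuir (adjusted p = 0.0167) and -1.20 ± 0.21 in Ujumqin (adjusted p = 4.84e-04), and the Hulunbuir call was lost without day 25 replicate 1, day 25 replicate 2 or day 16 replicate 3 (adjusted p 0.0525 to 0.0614). By limma on log2(FPKM + 1) ADAR was not called in Hulunbuir (adjusted p = 0.116). EIF2AK2, the double-stranded RNA kinase PKR, was lower at day 25 in Ujumqin, by a log2 change of -0.87 ± 0.27 (adjusted p = 0.0163). That call was lost without Ujumqin day 25 replicate 3 (adjusted p = 0.0524) or day 16 replicate 2 (adjusted p = 0.0551). In Hulunbuir the EIF2AK2 change was 0.24 ± 0.27 (adjusted p = 0.514).

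Among the pathway enzymes, PARP9 and PARP14 were higher and TRIM25 was lower at day 25 in both breeds. PARP9 and PARP14 belong to the ADP-ribosyltransferase family, and DTX3L is the ubiquitin ligase that forms a complex with PARP9; the 3 genes are neighbours on chromosome 1, in the order PARP9, DTX3L and PARP14. PARP9 had 3.13, 3.06 and 2.02 FPKM in Hulunbuir and 3.13, 2.47 and 2.52 FPKM in Ujumqin embryos at day 25, against 0.587, 0.494 and 0.753 FPKM in Hulunbuir and 0.413, 0.387 and 0.861 FPKM in Ujumqin embryos at day 16. PARP14 had 2.50, 2.19 and 3.01 FPKM in Hulunbuir and 1.99, 1.53 and 1.48 FPKM in Ujumqin embryos at day 25, against 0.576, 0.359 and 0.655 FPKM in Hulunbuir and 0.238, 0.222 and 0.693 FPKM in Ujumqin embryos at day 16. Neither gene's ages overlapped, and their log2 changes were 2.01 ± 0.33 and 2.14 ± 0.38 in Hulunbuir and 2.43 ± 0.33 and 2.28 ± 0.38 in Ujumqin (adjusted p 9.34e-05 to 0.00126). DTX3L, which lies between them, changed by 1.21 ± 0.46 in Hulunbuir (adjusted p = 0.0564) and -0.11 ± 0.46 in Ujumqin (adjusted p = 0.848).

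TRIM25, the ubiquitin ligase that activates RIG-I, had 4.83, 4.56 and 4.45 FPKM in Hulunbuir and 3.76, 2.01 and 2.56 FPKM in Ujumqin embryos at day 25, against 6.61, 13.2 and 6.53 FPKM in Hulunbuir and 15.5, 18.5 and 12.5 FPKM in Ujumqin embryos at day 16. Its log2 change was -2.36 ± 0.37 in Ujumqin (adjusted p = 2.38e-04). In Hulunbuir it was -1.14 ± 0.36 (adjusted p = 0.0244) and lost its call without day 16 replicate 2, where the log2 change was -0.56 (adjusted p = 0.105), or without any day 25 replicate (adjusted p 0.0627 to 0.0728). PARP9 and PARP14 passed the filter through day 25 libraries alone; of the other 2 enzymes, TRIM25 was lower in both breeds and DTX3L was called in neither.

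Of the 3 sensors of viral RNA, IFIH1 and DHX58 were higher at day 25 in both breeds and DDX58 had no call in either. IFIH1, the sensor MDA5 for long double-stranded RNA, was higher at day 25 in every library, with 3.72, 3.92 and 3.89 FPKM in Hulunbuir and 4.03, 3.11 and 3.15 FPKM in Ujumqin embryos, against 0.360, 0.189 and 0.285 FPKM in Hulunbuir and 0.716, 1.77 and 0.694 FPKM in Ujumqin embryos at day 16. The log2 change was 3.62 ± 0.40 in Hulunbuir (adjusted p = 9.64e-05) and 1.80 ± 0.37 in Ujumqin (adjusted p = 0.00140). DHX58, the sensor LGP2 that modulates the other two, had 14.4, 14.3 and 14.3 FPKM in Hulunbuir and 16.5, 14.8 and 14 FPKM in Ujumqin embryos at day 25, against 9.35, 4.88 and 8.05 FPKM in Hulunbuir and 3.77, 3.43 and 3.06 FPKM in Ujumqin embryos at day 16. It changed by 0.81 ± 0.18 in Hulunbuir (adjusted p = 0.00433) and by 2.27 ± 0.19 in Ujumqin (adjusted p = 4.16e-06), again without overlap of the ages.

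DDX58, the sensor RIG-I for RNA with a 5′ triphosphate, was even at day 25 and scattered at day 16. It had 7.68, 8.20 and 7.47 FPKM in Hulunbuir and 9.94, 7.14 and 7.18 FPKM in Ujumqin embryos at day 25, against 0.169, 10.4 and 0.847 FPKM in Hulunbuir and 6.53, 9.13 and 1.64 FPKM in Ujumqin embryos at day 16. No change with age was called, with log2 values of 0.70 ± 1.07 in Hulunbuir (adjusted p = 0.626) and 0.59 ± 1.06 in Ujumqin (adjusted p = 0.644). Without Hulunbuir day 16 replicate 2 the Hulunbuir change was 3.93 and was called (adjusted p = 0.00329). MAVS, the mitochondrial adaptor of these sensors, had 7.88, 8.16 and 8.09 FPKM in Hulunbuir and 3.54, 3.60 and 2.0 FPKM in Ujumqin embryos at day 25, against 4.88, 5.12 and 7.67 FPKM in Hulunbuir and 9.19, 13.3 and 9.63 FPKM in Ujumqin embryos at day 16. It was lower at day 25 in Ujumqin, by a log2 change of -1.68 ± 0.26 (adjusted p = 2.04e-04), and changed by 0.31 ± 0.25 in Hulunbuir (adjusted p = 0.345).

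Of the 3 tested receptor and kinase genes, IFNAR1 was lower at day 25 in both breeds, JAK1 was higher in Hulunbuir and TYK2 was lower in Ujumqin. IFNAR1, the receptor chain that binds TYK2, lies on chromosome 1 from 120422988 to 120448951 on the minus strand. It had 4.70, 4.70 and 6.32 FPKM in Hulunbuir and 5.09, 3.16 and 2.95 FPKM in Ujumqin embryos at day 25, against 15.6, 14.1 and 18.1 FPKM in Hulunbuir and 25.6, 12.2 and 25.0 FPKM in Ujumqin embryos at day 16. The receptor gene thus moved opposite to ISG15 and IFI6, with log2 changes of -1.76 ± 0.27 in Hulunbuir (adjusted p = 5.90e-04) and -2.35 ± 0.28 in Ujumqin (adjusted p = 3.46e-05) and no overlap of ages. IFNAR2, the chain that binds JAK1, never exceeded 0.747 FPKM. It was below the filter, with 17 to 51 counts per library at day 25 and 0 to 12 at day 16. Fitted without the filter, IFNAR2 was called higher at day 25 in Hulunbuir (log2 change 4.78 ± 1.41, adjusted p = 0.0237) and had 2.73 ± 1.23 in Ujumqin (adjusted p = 0.0912).

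JAK1 had 16.9, 19.8 and 16.6 FPKM in Hulunbuir and 15.1, 9.17 and 10.7 FPKM in Ujumqin embryos at day 25, against 4.61, 7.30 and 7.28 FPKM in Hulunbuir and 12.9, 12.1 and 22.1 FPKM in Ujumqin embryos at day 16. It was higher at day 25 in Hulunbuir, with a log2 change of 1.30 ± 0.26 (adjusted p = 0.00273), and changed by -0.29 ± 0.26 in Ujumqin (adjusted p = 0.347). TYK2 had 7.42, 6.37 and 6.19 FPKM in Hulunbuir and 4.45, 3.25 and 3.08 FPKM in Ujumqin embryos at day 25, against 6.21, 10.5 and 10.4 FPKM in Hulunbuir and 7.84, 10 and 10.1 FPKM in Ujumqin embryos at day 16. It was lower at day 25 in Ujumqin, by -1.24 ± 0.23 (adjusted p = 7.26e-04). In Hulunbuir its ages overlapped and the change of -0.61 ± 0.23 was just short of a call, which it reached without day 16 replicate 1 (log2 change -0.83, adjusted p = 0.00816). JAK1 overlaps the RAVER2 gene on the opposite strand by 15 bases, and whether the counting used strand is not given in the sources used here.

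Of the transcription factors, IRF9 and IRF1 were higher at day 25 in both breeds, and IRF7 and IRF3 in Hulunbuir. IRF9, the DNA-binding subunit of the complex with STAT2, had 28.6, 24.6 and 24.3 FPKM in Hulunbuir and 31.7, 25.8 and 28.5 FPKM in Ujumqin embryos at day 25, against 3.19, 7.10 and 6.35 FPKM in Hulunbuir and 3.73, 4.88 and 4.17 FPKM in Ujumqin embryos at day 16. Its log2 change was 2.04 ± 0.28 in Hulunbuir (adjusted p = 3.07e-04) and 2.88 ± 0.29 in Ujumqin (adjusted p = 1.31e-05). IRF1, an interferon gamma-induced activator, changed by 1.66 ± 0.43 in Hulunbuir (adjusted p = 0.0110) and 1.94 ± 0.44 in Ujumqin (adjusted p = 0.00246).

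IRF7, the factor that amplifies interferon production, had 4.29, 4.33 and 4.57 FPKM in Hulunbuir and 1.59, 2.38 and 2.57 FPKM in Ujumqin embryos at day 25, against 0.388, 0.763 and 0.202 FPKM in Hulunbuir and 1.46, 3.17 and 0.959 FPKM in Ujumqin embryos at day 16. The Ujumqin ages overlapped and the Hulunbuir ages did not. Its log2 change was 3.03 ± 0.60 in Hulunbuir (adjusted p = 0.00258) and 0.35 ± 0.55 in Ujumqin (adjusted p = 0.591). The whole span of IRF7, 2891 bases, lies within the spans of 2 other annotated genes on the same strand. Reads may therefore be shared with them, and overlap of exons was not examined. IRF3, which acts just after the sensors, had 25.5, 24.3 and 24.7 FPKM in Hulunbuir and 13, 15.5 and 14.6 FPKM in Ujumqin embryos at day 25, against 13.3, 8.95 and 9.92 FPKM in Hulunbuir and 11.9, 16.0 and 9.76 FPKM in Ujumqin embryos at day 16. Its change was 1.05 ± 0.23 in Hulunbuir (adjusted p = 0.00408) and 0.33 ± 0.23 in Ujumqin (adjusted p = 0.219). With day 16 replicate 3 alone for its group the Ujumqin change was called (0.73, adjusted p = 0.0436). IRF3 overlaps BCL2L12 on the opposite strand by 534 bases. STAT2 had 8.23, 9.68 and 9.79 FPKM in Hulunbuir and 6.97, 3.60 and 4.64 FPKM in Ujumqin embryos at day 25, against 7.16, 8.26 and 9.60 FPKM in Hulunbuir and 9.96, 10.3 and 12 FPKM in Ujumqin embryos at day 16. It was lower at day 25 in Ujumqin, by -0.95 ± 0.21 (adjusted p = 0.00205), and changed by -0.01 ± 0.21 in Hulunbuir (adjusted p = 0.973).

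Over the 31 tested genes, 20 were higher and 4 lower at day 25 in Hulunbuir, with a median log2 change of 1.93 against -0.04 over all genes tested. In Ujumqin 17 were higher and 8 lower, with a median of 1.80 against -0.07. For the 23 genes that reached 1 FPKM at both ages the counts were 12 higher and 4 lower in Hulunbuir and 9 higher and 8 lower in Ujumqin, with medians of 1.05 in Hulunbuir and 0.33 in Ujumqin. On FPKM, 22 of the 31 genes were higher and 3 lower at day 25 without overlap in Hulunbuir, beside 33.4% and 21.6% of all genes. In Ujumqin 17 were higher and 8 lower without overlap, beside 30.9% and 36.9%. The higher genes in both breeds include the 8 that passed the filter only through day 25 libraries. The filter fixed their lack of overlap in Hulunbuir and, for all but HERC6, in Ujumqin. On the deposited FPKM scale, which is not corrected for composition, limma called 21 higher and 2 lower in Hulunbuir, the 21 again including those 8. Of all its calls there 64.1% were higher, compared with 46.6% by the count test. Markers of other tissues moved with age too. Of 12 tested trophoblast markers 6 were lower at day 25 in Hulunbuir and 9 in Ujumqin, and none was higher. The summed level of the 15 trophoblast markers was 370 to 408 FPKM in Hulunbuir and 330 to 599 FPKM in Ujumqin at day 25, against 1733 to 5624 FPKM in Hulunbuir and 1837 to 3993 FPKM in Ujumqin at day 16. Of 13 tested leukocyte markers 6 were higher and 0 lower at day 25 in Hulunbuir, and 5 were higher and 3 lower in Ujumqin. Their sum over 23 genes was 165 to 170 FPKM in Hulunbuir and 116 to 133 FPKM in Ujumqin at day 25, against 68.5 to 104 FPKM in Hulunbuir and 107 to 223 FPKM in Ujumqin at day 16, and PTPRC, the pan-leukocyte marker, stayed at or below 0.337 FPKM. Of 11 tested markers of the uterine endometrium 1 was higher and 4 lower at day 25 in Hulunbuir, and 2 were higher and 6 lower in Ujumqin. Their sum over 16 genes was 164 to 169 FPKM in Hulunbuir and 100 to 115 FPKM in Ujumqin at day 25, against 147 to 167 FPKM in Hulunbuir and 386 to 663 FPKM in Ujumqin at day 16, and PGR and PAEP had 0 counts in all 12 libraries. The part of trophoblast, leukocyte and endometrium content in the changes with age was not tested.

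**Figure D3:**
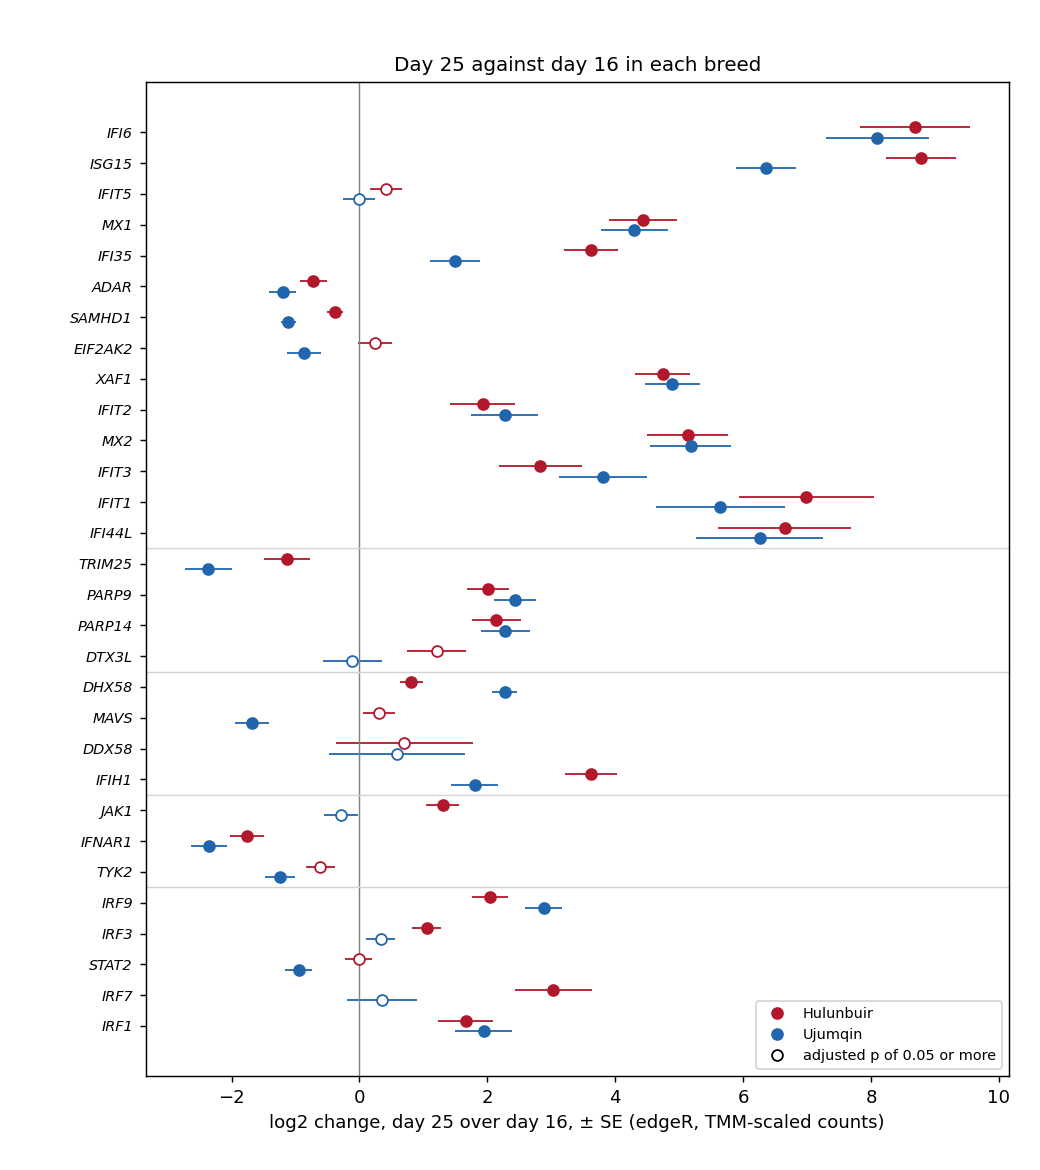
Log2 change of day 25 over day 16 (points) with its SE (lines) from the edgeR fit on TMM-scaled counts, for 30 of the 31 tested genes in Hulunbuir (red) and Ujumqin (blue), grouped by role with effectors at the top; HERC6, with no count in Hulunbuir at day 16, is left out. Filled points passed an adjusted p of 0.05. Within each breed ISG15 and IFI6 lie farthest to the right (8.78 and 8.68 in Hulunbuir, 6.36 and 8.10 in Ujumqin). TRIM25 and IFNAR1 are the lowest in Ujumqin (-2.36 and -2.35).

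Between the breeds at day 25 the genes split. In Hulunbuir embryos IFIT1, MAVS, IRF7, SAMHD1, TYK2, STAT2, ADAR, IRF3 and IFI35 were higher than in Ujumqin embryos, and IFI6, XAF1, IRF9, DHX58 and DDX58 were lower. ISG15 did not differ in a called way. That is 9 higher and 5 lower of 31 by the edgeR test within the 6 libraries of that age, with a median log2 change of 0.30 against 0.03 over all genes tested. Among all genes 23.3% were higher and 22.7% lower, so the share of called genes in this set (14 of 31) was close to the 46.0% called overall. For this comparison levels are given as TMM-scaled CPM (counts scaled to library size), because the TMM factors were 1.14 to 1.16 in Hulunbuir and 0.873 to 0.939 in Ujumqin libraries. On the FPKM scale limma found the median gene 0.29 higher in Hulunbuir, 80.6% of its calls were higher against 50.6% by the count test, and it called 18 of the 31 genes higher and 2 lower. On deposited FPKM 18 of the 31 genes were higher and 2 lower without overlap, beside 49.1% and 13.2% of all genes tested. Each count of 18 higher genes includes HERC6, whose direction between the breeds at day 25 the filter fixed.

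Of the effectors 4 were higher and 2 lower in Hulunbuir. IFI6 had 69.4, 80.0 and 67.8 CPM in Hulunbuir against 191, 155 and 152 CPM in Ujumqin embryos, a log2 change of -1.15 ± 0.11 (adjusted p = 1.31e-04). XAF1 had 11.9, 12.9 and 12.8 CPM in Hulunbuir against 20.4, 19.1 and 21.9 CPM in Ujumqin embryos, a log2 change of -0.67 ± 0.11 (adjusted p = 0.00156). IFIT1 went the other way, with 7.90, 6.79 and 8.68 CPM in Hulunbuir against 3.91, 2.51 and 3.60 CPM in Ujumqin embryos and a log2 change of 1.26 ± 0.22 (adjusted p = 0.00201). So did SAMHD1, with 27.2, 29.0 and 29.2 CPM in Hulunbuir against 18.8, 17.8 and 19.7 CPM in Ujumqin embryos and a log2 change of 0.64 ± 0.09 (adjusted p = 8.87e-04). These 4 genes differed without overlap, and in both directions. IFI35 and ADAR were higher by 0.42 ± 0.10 (adjusted p = 0.00936) and 0.54 ± 0.15 (adjusted p = 0.0157), the ADAR call being lost without Hulunbuir replicate 3 (adjusted p = 0.0599). ISG15 had 88.4, 99.7 and 98.0 CPM in Hulunbuir against 93.9, 107 and 95.5 CPM in Ujumqin embryos, a log2 change of -0.01 ± 0.08 (adjusted p = 0.941). On the FPKM scale the same gene was called 0.32 higher in Hulunbuir (adjusted p = 0.00926).

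MX1 had 81.6, 80.9 and 82.0 CPM in Hulunbuir against 109, 47.2 and 41.2 CPM in Ujumqin embryos, a log2 change of 0.35 ± 0.31 (adjusted p = 0.393). The value turned on Ujumqin replicate 1: without it MX1 was 0.92 higher in Hulunbuir (adjusted p = 1.95e-05) and MX2 0.95 higher, against 0.01 ± 0.47 with it. The same library had the highest FPKM of its group in 25 of the 34 genes, beside 52.9% of all genes tested. Without it 21 of the 31 genes were called, 16 higher and 5 lower, and the share of all genes called was 55.6%. IFIT5, JAK1, TRIM25, PARP14 and HERC6 were among the added ones, the direction of HERC6 being fixed by the filter. Within a group at day 25, the median coefficient of variation of the 34 genes on the FPKM scale was 8.24% in Hulunbuir and 20.8% in Ujumqin.

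The pathway enzymes had no call at day 25. With 1 spread for all 12 libraries, SAMHD1 and MAVS were the only 2 of the 31 genes called between the breeds at this age. In the sensing branch MAVS had 12.3, 12.9 and 12.7 CPM in Hulunbuir against 6.84, 7.49 and 4.19 CPM in Ujumqin embryos, a log2 change of 1.08 ± 0.22 (adjusted p = 0.00410). DHX58 had 51.9, 52.4 and 52.1 CPM in Hulunbuir against 73.3, 70.8 and 67.8 CPM in Ujumqin embryos, a log2 change of -0.40 ± 0.07 (adjusted p = 0.00216). On deposited FPKM DHX58 overlapped between breeds, and limma gave -0.06 (adjusted p = 0.558), whereas its call was kept with RLE scaling and by DESeq2. DDX58 was at -0.38 ± 0.12 (adjusted p = 0.0350) by the count test, called also with RLE scaling and by DESeq2. It was not called by voom with a weight per group (-0.42, adjusted p = 0.294) or by limma on FPKM (-0.04, adjusted p = 0.848). The DDX58 call was also lost without any 1 of the Hulunbuir replicates (adjusted p 0.0584 to 0.116). IFIH1 changed by -0.16 ± 0.13 (adjusted p = 0.332).

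TYK2 had 30, 26.2 and 25.3 CPM in Hulunbuir against 22.3, 17.5 and 16.7 CPM in Ujumqin embryos, a log2 change of 0.57 ± 0.13 (adjusted p = 0.00874). JAK1 and IFNAR1 had no call, at 0.29 ± 0.15 (adjusted p = 0.144) and 0.17 ± 0.21 (adjusted p = 0.529). Among the factors, IRF9 had 37.5, 32.7 and 32.2 CPM in Hulunbuir against 51.5, 44.9 and 50.2 CPM in Ujumqin embryos, a log2 change of -0.48 ± 0.10 (adjusted p = 0.00410) that was -0.14 (adjusted p = 0.279) on the FPKM scale. IRF3 was higher by 0.45 ± 0.11 (adjusted p = 0.0115). IRF7 was higher by 0.67 ± 0.23 (adjusted p = 0.0387) and STAT2 by 0.55 ± 0.20 (adjusted p = 0.0491), both near the threshold. IRF7 lost its call without any 1 Hulunbuir replicate or Ujumqin replicate 2 (adjusted p 0.0549 to 0.108). STAT2 lost it without any 1 Hulunbuir replicate, Ujumqin replicate 2 or Ujumqin replicate 3 (adjusted p 0.0644 to 0.136). Thus the DNA-binding partner IRF9 was lower in Hulunbuir on the count scale while STAT2, of the same complex, was higher. Leukocyte markers were higher in Hulunbuir for 5 of 13 tested genes and lower for 1, and whether they contributed to these differences was not tested.

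**Figure D4:**
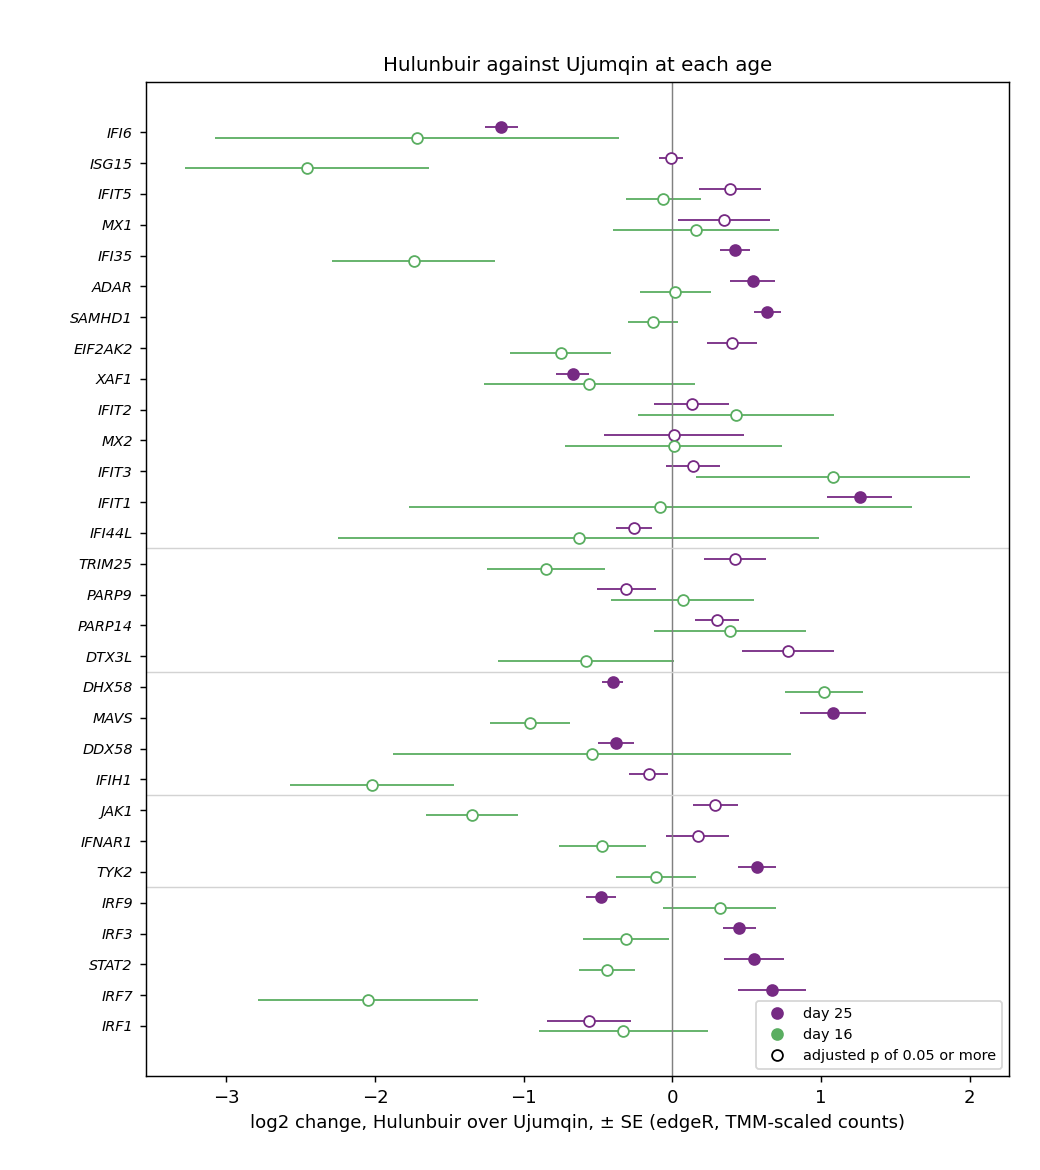
Log2 change of Hulunbuir over Ujumqin (points) with its SE (lines) for 30 of the 31 tested genes at day 25 (purple) and day 16 (green), each from the edgeR fit on TMM-scaled counts of the 6 libraries of that age, grouped by role with effectors at the top; HERC6 is left out. Filled points passed an adjusted p of 0.05: 14 genes at day 25 and 0 at day 16, where the SE lines are several times as long for genes such as IFI6 (1.36 against 0.11).

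At day 16 none of the 31 genes was called between the breeds, beside 0.0137% of all genes higher and 0.00685% lower, which is 3 genes or 0.0206% in all. At an unadjusted p under 0.05 there were 7 of the 31 genes and 2955 of all genes. The median log2 change of the 31 was -0.44, against 0.01 over all genes tested. On FPKM, 1 gene (DHX58) was higher and 7 (ISG15, IFI35, IFIH1, MAVS, JAK1, STAT2 and IRF7) were lower in Hulunbuir without overlap, beside 13.2% and 11.1% of all genes. ISG15 had 0.309, 0.264 and 0.0774 CPM in Hulunbuir against 0.470, 1.24 and 1.87 CPM in Ujumqin embryos, a log2 change of -2.46 ± 0.82 (adjusted p = 0.175). IFIH1 had 1.24, 0.766 and 0.870 CPM in Hulunbuir against 2.65, 6.66 and 2.39 CPM in Ujumqin embryos, a log2 change of -2.02 ± 0.55 (adjusted p = 0.138). DHX58 had 37.6, 22.7 and 28.5 CPM in Hulunbuir against 16.3, 15.2 and 12.3 CPM in Ujumqin embryos, a log2 change of 1.02 ± 0.26 (adjusted p = 0.131). These differences were large beside those at day 25 and did not pass the test within the 6 day 16 libraries. With 1 spread for all 12 libraries 7 genes were called (DHX58 higher; ISG15, IFI35, IFIH1, MAVS, JAK1 and IRF7 lower), and DESeq2 called 5. With the replicate number as a block, 293 of all genes were called and 0 of the 31. Within the groups the median coefficient of variation of these genes was 38.0% in Hulunbuir and 30.3% in Ujumqin on the FPKM scale.

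A breed difference that changed with age was called for 9 of the 31 genes, by the interaction term of the 12-library edgeR fit (Hulunbuir minus Ujumqin at day 25, minus the same at day 16). The breed difference was higher at day 25 for ISG15, IFI35, SAMHD1, IFIH1, MAVS, JAK1, STAT2 and IRF7 and lower for DHX58, with 8.89% and 10.3% of all genes called in these directions. This fit gives both ages 1 spread, although variation between replicates was 18.1% at day 25 and 43.8% at day 16. Its p-values may therefore be too small. The 7 genes called at day 16 with 1 spread, none of them with day 16's own, are all among the 9. Voom with a weight per group kept 6 of the 9 calls. MAVS had an interaction of 1.99 ± 0.36 on the log2 scale (adjusted p = 0.00484): it was the higher in Hulunbuir at day 25, with 12.3 to 12.9 CPM against 4.19 to 7.49 CPM in Ujumqin, and the lower at day 16, with 8.50 to 11.8 CPM against 16.8 to 25.5 CPM in Ujumqin. DHX58 mirrored it, with an interaction of -1.46 ± 0.25 (adjusted p = 0.00410). JAK1 had an interaction of 1.59 ± 0.37 (adjusted p = 0.0138), with 60.2 to 72.0 CPM in Hulunbuir and 43.7 to 66.9 CPM in Ujumqin at day 25, against 18.5 to 33.8 CPM in Hulunbuir and 53.1 to 88.7 CPM in Ujumqin at day 16. For ISG15 the interaction was 2.42 ± 0.62 (adjusted p = 0.0209). The ISG15 levels of the breeds were close at day 25 and apart at day 16, where they rest on few counts. With Ujumqin day 16 replicate 3 alone for its group, IFI35, IFIH1, STAT2 and IRF7 lost their interaction call (adjusted p 0.0557 to 0.178), and DTX3L (adjusted p = 0.0383) and HERC6 (adjusted p = 0.0239) gained one. For HERC6 the filter favoured a higher interaction. By limma on FPKM 11 of the 31 genes were higher and 1 lower, and 74.1% of all its calls were higher against 46.3% by the count test.

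Another 3 listed genes, CMPK2, EPSTI1 and USP18, were named only through RefSeq. CMPK2, a mitochondrial nucleotide kinase whose gene lies 12417 bases from RSAD2, had 11.1, 11.1 and 12.3 FPKM in Hulunbuir and 9.28, 9.69 and 9.88 FPKM in Ujumqin embryos at day 25, against 3.58, 2.43 and 4.49 FPKM in Hulunbuir and 2.74, 1.16 and 2.54 FPKM in Ujumqin embryos at day 16. It was higher at day 25 by 1.59 ± 0.26 in Hulunbuir (log2, adjusted p = 8.43e-04) and 2.31 ± 0.27 in Ujumqin (adjusted p = 3.12e-05). EPSTI1 had 5.11, 5.17 and 4.93 FPKM in Hulunbuir and 7.65, 4.41 and 5.18 FPKM in Ujumqin embryos at day 25, against 0.186, 0 and 0.345 FPKM in Hulunbuir and 1.25, 1.99 and 1.93 FPKM in Ujumqin embryos at day 16. Its log2 change with age was 4.64 ± 0.70 in Hulunbuir and 1.86 ± 0.59 in Ujumqin, with an interaction of 2.78 ± 0.87 (adjusted p = 0.0454). USP18, the protease that removes ISG15 from proteins, was detected in every library and scattered at day 16. It had 23.3, 24.3 and 25.1 FPKM in Hulunbuir and 26.3, 15.2 and 19.3 FPKM in Ujumqin embryos at day 25, against 25.5, 66.7 and 17.1 FPKM in Hulunbuir and 73.3, 52.3 and 28.3 FPKM in Ujumqin embryos at day 16. No USP18 contrast was called, the nearest being a log2 change of -1.23 ± 0.52 with age in Ujumqin (adjusted p = 0.0568).

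The genes below the filter were nearly silent at day 16. RSAD2, which encodes viperin, had 1.04, 0.947 and 0.273 FPKM in Hulunbuir and 0.254, 0.140 and 0.0941 FPKM in Ujumqin embryos at day 25, against 8 counts in 1 of 3 Hulunbuir libraries and none in Ujumqin at day 16. IFI44, the neighbour of IFI44L on chromosome 1, had 1.14, 0.917 and 0.988 FPKM in Hulunbuir and 0.562, 0.328 and 0.231 FPKM in Ujumqin embryos at day 25. At day 16 it had counts in 1 library of each breed, 4 in Hulunbuir and 43 in Ujumqin.

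Of a further list of 97 interferon pathway genes 67 were in the table and 52 were tested. At day 25 against day 16, 24 were higher and 4 lower in Hulunbuir, beside 18.9% and 21.6% of all genes, and 21 were higher and 11 lower in Ujumqin, beside 30.7% and 32.9%. Of the 52, 7 (ISG20, RTP4, HERC5, LGALS9, GBP5, CXCL10 and PSMB8) passed the filter through day 25 libraries alone, which favoured a higher level at that age. ISG20 and LGALS9 passed through Hulunbuir libraries alone, so the filter did not fix their change in Ujumqin, where neither was called. Of the other 45, 18 were higher and 4 lower in Hulunbuir (median log2 change 0.41), and 16 were higher and 11 lower in Ujumqin (median 0.11). Of the ligands on that list, IFNE and IFNK had 0 counts in every library, and IFNG had 4 counts in Hulunbuir day 25 replicate 2, 4 counts in Ujumqin day 25 replicate 3 and 0 in the others. None of them was tested, and interferon tau was not analysed here. CXCL10, a chemokine, had 22.8, 15.6 and 13.8 FPKM in Hulunbuir and 3.00, 5.01 and 3.34 FPKM in Ujumqin embryos at day 25, and no count in any day 16 library. With a floor of 3 counts per library it was at least 90.6-fold higher at day 25 in Hulunbuir and at least 22.5-fold higher in Ujumqin. Of the immunoproteasome subunits, PSMB8, whose direction the filter fixed, had log2 changes of 3.56 ± 0.36 in Hulunbuir and 3.41 ± 0.36 in Ujumqin. PSMB10 reached 1 FPKM in all 12 libraries and rose by 1.77 ± 0.18 in Hulunbuir and 2.20 ± 0.18 in Ujumqin. The complement protease C1S was 0.71 ± 0.17 higher in Hulunbuir and 1.71 ± 0.18 higher in Ujumqin at day 25. Lower at day 25 in both breeds were WARS, the tryptophanyl-tRNA synthetase, by -0.61 ± 0.18 in Hulunbuir and -1.25 ± 0.18 in Ujumqin, and PIAS1, an inhibitor of STAT signalling, by -0.50 ± 0.14 in Hulunbuir and -0.53 ± 0.14 in Ujumqin. IL10RB, a receptor chain of type III interferons, was lower in Hulunbuir by -0.75 ± 0.22 (adjusted p = 0.0194), and the antiviral zinc finger gene ZC3HAV1 and the phosphatase gene PTPN6 were lower in Ujumqin, by -1.76 ± 0.29 and -3.96 ± 0.87. PTPN6 had 12.8, 43.4 and 2.41 FPKM in the Ujumqin day 16 libraries, highest in replicates 1 and 2.

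Between the breeds at day 25, 14 of these 52 genes were higher and 12 lower in Hulunbuir, beside 23.3% and 22.7% of all genes. The 14 include ISG20 and LGALS9, which passed the filter through the 3 Hulunbuir day 25 libraries alone and had to be higher there. At day 16 none was called by edgeR, beside 3 of all 14595 genes, with 16 of the 52 at an unadjusted p under 0.05. SAMD9 had 2.90, 2.33 and 2.98 FPKM in Hulunbuir against 0.354, 0.294 and 0.652 FPKM in Ujumqin embryos at day 25, a log2 change of 2.31 ± 0.30 (adjusted p = 5.22e-04). It reached 1 FPKM only in the 3 Hulunbuir day 25 libraries and in 1 Ujumqin day 16 library. The filter therefore favoured a higher SAMD9 level in Hulunbuir at day 25 and a higher interaction. UBE2L6, the conjugating enzyme for ISG15, was higher by 1.04 ± 0.16 (adjusted p = 0.00109) and WARS by 0.87 ± 0.09 (adjusted p = 1.47e-04). IFITM3, a membrane protein that blocks virus entry, was the lower in Hulunbuir, with 295, 328 and 301 FPKM against 385, 407 and 388 FPKM in Ujumqin embryos and a log2 change of -0.68 ± 0.08 (adjusted p = 4.27e-04). LY6E and MOV10 were lower by -0.80 ± 0.09 and -0.54 ± 0.07. Of the 52 genes 6 had a higher and 3 a lower interaction, beside 8.89% and 10.3% of all genes. SAMD9 had the largest, 6.15 ± 0.97 (adjusted p = 0.00281), with 0.0822 to 0.110 FPKM in Hulunbuir and 0.412 to 3.21 FPKM in Ujumqin embryos at day 16. TDRD7 had 1.42 ± 0.35 and PTPN6 4.52 ± 1.15, whereas IFITM3 had -1.58 ± 0.37, C1S -1.0 ± 0.24 and TAP1, the peptide transporter subunit, -0.98 ± 0.28.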

How the data were processed

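TRIzol total RNA was made into Illumina libraries, per the labels' protocols, and the submitters' processing notes name cutadapt 1.9, FastQC and the Oar_v3.1 genome. The aligner, the counting and FPKM programs and any strand setting were not given in the sources used here. The deposited table gives, per the file headers, a raw count and an FPKM value per gene for each of 12 libraries, and FPKM is 0.0001 where the count is 0. Entries were matched to members by gene name. RefSeq gene numbers (assembly ARS-UI_Ramb_v3.0) served for names alone. The members, gene lists and tests were chosen with earlier results of these data known.

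Genes of at least 1 FPKM in at least 3 libraries were tested with edgeR 4.0.16 (R 4.3.3) quasi-likelihood tests on the deposited counts after TMM scaling, two-sided, with Benjamini-Hochberg adjustment over all 14595 genes and a threshold of 0.05. Breeds were compared within the 6 libraries of an age, whose biological coefficients of variation were 18.1% at day 25 and 43.8% at day 16. Ages and the interaction used 4 group means over 12 libraries with 1 spread. In earlier simulated counts a spread shared by both ages gave many false calls at day 16, on which the age comparisons and the interaction also draw. Their p-values may therefore be too small. With age, voom with a weight per group kept 24 of 24 calls in Hulunbuir and 25 of 25 in Ujumqin. The SE is the size of the log2 change divided by the root of F. The fits were also run on simulated counts, in which far fewer genes changed than were called with age here. The outcome of that run is not given here. Alternatives were RLE scaling, no filter, DESeq2 1.42.0, limma 3.58.1 on log2(FPKM + 1), voom with a weight per group, other sets of libraries, single libraries left out and a replicate block.

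Replicates of a group differed by far more than sampling noise (chi-square per degree of freedom 16 to 582), so each library counted on its own. Replicate numbers come from the sample titles. Deviations from group means correlated for same-numbered day 16 libraries of the breeds (r = 0.195, 0.322 and 0.383, all over 0.1) and not for every pair elsewhere (r from -0.107 to 0.124). Numbers were thus taken to pair libraries at day 16 only. The main breed test at day 16 took no account of this pairing, which entered only through the replicate block, an alternative. Floors of 3 counts per library correspond to 0.0541 to 0.0985 CPM and cover counting error only.

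Values in every library are given for the called genes with the smallest adjusted p in a comparison (up to 8) and for the 3 genes of each class with the highest mean FPKM, the others as means, ranges or counts. A few further genes were added after their values were seen, because 1 library decided their call. One gene of the further pathway list is not reported here.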

Additional observations from a re-analysis of the deposited data

Results flagged for a closer look

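A breed difference that changed with age was called for 9 interferon genes, by the interaction term of the edgeR fit over 12 libraries. The term is Hulunbuir minus Ujumqin at day 25, minus the same at day 16, on the log2 scale. Adjustment was by Benjamini-Hochberg over 14595 genes. The fit gives both ages 1 spread although day 16 libraries varied more, so its p-values may be too small. Sensing genes were IFIH1, with an interaction of 1.82 ± 0.52 (SE, adjusted p = 0.0322), DHX58, with -1.46 ± 0.25 (adjusted p = 0.0041), and the adaptor MAVS, with 1.99 ± 0.36 (adjusted p = 0.00484). Effectors were ISG15 with 2.42 ± 0.62 (adjusted p = 0.0209), IFI35 with 2.12 ± 0.55 (adjusted p = 0.0221) and SAMHD1 with 0.73 ± 0.17 (adjusted p = 0.0134). The kinase JAK1 had 1.59 ± 0.37 (adjusted p = 0.0138), and of the factors STAT2 had 0.94 ± 0.29 (adjusted p = 0.0433) and IRF7 had 2.68 ± 0.80 (adjusted p = 0.0390). In the same fit 19.2% of all genes were called.

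SAMHD1, DHX58, MAVS and JAK1 were called in every alternative run. The others were not. Voom with a weight per group did not call ISG15 (adjusted p = 0.149), IFIH1 (adjusted p = 0.101) or STAT2 (adjusted p = 0.0702), and limma on log2(FPKM + 1) did not call IFIH1 (adjusted p = 0.0822). With Ujumqin day 16 replicate 3 alone for its group, IFI35 (adjusted p = 0.0557), IFIH1 (adjusted p = 0.0664), STAT2 (adjusted p = 0.0698) and IRF7 (1.70, adjusted p = 0.178) lost their call, and DTX3L (2.14, adjusted p = 0.0383) and HERC6 (5.42, adjusted p = 0.0239) gained one. For HERC6, which passed the filter through the Hulunbuir day 25 libraries alone, the filter favoured a higher interaction. IFI35 was not called without Hulunbuir day 25 replicate 2 (adjusted p = 0.0533) or Ujumqin day 25 replicate 3 (adjusted p = 0.0522). IFIH1 lost its call without any Hulunbuir day 25 replicate, Ujumqin day 25 replicate 2 or 3, or Hulunbuir day 16 replicate 3 (adjusted p 0.0541 to 0.0704). STAT2 lost it without the same libraries, and also without Hulunbuir day 16 replicate 1 or Ujumqin day 16 replicate 2 or 3 (adjusted p 0.0591 to 0.0995). IRF7 lost it without any day 25 library, Hulunbuir day 16 replicate 1 or 3, or Ujumqin day 16 replicate 2 (adjusted p 0.0511 to 0.0824). All 10 erythroid markers also had a higher interaction, with a median of 6.63, and their part in these values was not tested.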

How the results depend on the processing

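Of the genes called in the report, 21 of 24 with age in Hulunbuir, 22 of 25 with age in Ujumqin, 2 of 14 between breeds at day 25 and 4 of 9 in the interaction were called in every alternative run. Over all alternatives, called genes kept their call in 929 cases and lost it in 86, and genes without a call gained one in 55. Only ISG15 at day 25 was called against its direction, by limma on log2(FPKM + 1) (0.32 higher in Hulunbuir, adjusted p = 0.00926). With 1 spread for 12 libraries 2 genes were called between breeds at day 25 and 7 at day 16, where DESeq2 called 5 and voom 2. Over all genes that fit called 2440 against 6716 at day 25, and 2459 against 3 at day 16. DESeq2 called 1608, voom 487, limma on log2(FPKM + 1) 0 (2733 at an unadjusted p under 0.05) and the replicate block 293 at day 16. Leaving out single libraries gave 10 to 21 interferon genes called between breeds at day 25, 0 to 0 at day 16, 21 to 24 with age in Hulunbuir, 24 to 25 in Ujumqin and 5 to 12 in the interaction, lowest without Hulunbuir day 25 replicate 2 or Ujumqin day 25 replicate 3. For all genes it gave 0 to 200 calls at day 16 (200 without Ujumqin replicate 3) and as few as 1561 against 2804 in the interaction (without Hulunbuir day 25 replicate 1). The replicate block gave 13 genes at day 25, 0 at day 16, 24 and 25 with age and 7 in the interaction, losing STAT2 at day 25 and IFIH1 and STAT2 in the interaction. With Ujumqin day 16 replicate 3 alone for its group, an alternative chosen after seeing the data in which the lone library is assumed to vary like the others, 24 genes were called with age in Ujumqin, 7 in the interaction and 0 at day 16. Low counts limit ISG15, IFI6, IFIT1, IFI44L and HERC6 at day 16.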
